A study of Mus musculus with 12 samples.

Results

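Livers of control mice, labelled WT, were compared between 5 and 2 months of a fast-food diet (FFD). The comparison uses 6 of the 12 libraries of the series, 3 at 2 months and 3 at 5 months, taken by their genotype and time labels. The other 6 libraries, labelled PPARγ-KO, are used only to test whether a change with months on diet differed between the genotypes. All animals were male PPARγ flox/flox mice, so the WT livers also carry the floxed alleles. WT animals were littermates given the AAV8.TBG.PI.eGFP virus, and the other genotype received AAV8.TBG.PI.Cre, whose TBG promoter drives Cre in hepatocytes and leaves the gene intact in the other cells of the liver. Every group was fed the same diet (TD.88137), rich in saturated fat, sucrose and cholesterol, with fructose and glucose in the drinking water, and total RNA of whole liver was sequenced.

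The design sets limits on what a difference between 5 and 2 months can be read as. The animals with more months on diet were also older, and no library from a normal diet was analysed here, so months on diet and age cannot be told apart. Calendar dates stood in place of 27 gene names in the deposited tables, with the year 2022 in every 2-month table and 2023 in every 5-month table of both genotypes. The 2 sets of tables were therefore handled at different times, and any batch that goes with them (sequencing run, RNA extraction, hour or season of harvest) cannot be told apart from months on diet. The hour of harvest is not given in the sources used here. The labels call the 3 libraries of a group repeats without naming animals, so the p-values measure the spread between these libraries, which may be technical.

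A liver on such a diet first fills its hepatocytes with triglyceride, made in part from sugar by de novo lipogenesis. With time, resident macrophages (Kupffer cells) are joined or replaced by macrophages that come from blood monocytes, lymphocytes enter, and stellate cells can turn into myofibroblasts that deposit collagen. Hepatocytes answer inflammatory cytokines by secreting acute phase proteins, and they handle misfolded secretory proteins through the unfolded protein response.

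Each WT library held between 16969546 and 18925781 counts, and 14491 genes passed the filter on low counts. In edgeR's quasi-likelihood test, 6725 genes (46.4%) passed an adjusted p of 0.05, 3442 higher (23.8%) and 3283 lower (22.7%) at 5 months. With so many calls, a gene list in which about 46.4% of the members are called is no different from the genes as a whole. Every count of called members in WT given below is to be read beside the 23.8% higher and 22.7% lower. At least a 2-fold change was estimated for 747 of the higher and 852 of the lower genes. The values of the 2 groups did not overlap for 8228 genes (56.8%), 28.6% higher and 28.1% lower at 5 months, while 141 called genes had groups that overlapped. The first principal component held 79.9% of the variance and separated the times, and the second (11.4%) set 2-month replicate 1 apart from the other libraries. That replicate differed from the other 2-month libraries by a chi-square per gene of 31.7 and 27.6, against 10.3 between those 2. At 5 months replicates 2 and 3 were much closer, at 2.44, and replicate 1 differed from them by 13.1 and 14.6. The spread behind the p-values thus rests in part on a close pair. With 1 library left out, the fewest genes were called without 5-month replicate 2 (5357) or 3 (5379). Values below are CPM (each count divided by the library's TMM-scaled total, as edgeR gives it), with libraries given in the order of replicates 1, 2 and 3. Log2 fold changes are 5 minus 2 months, with their standard error (SE), and every adjusted p is from edgeR over all genes tested.

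Part of the difference between the times followed the length of the gene. Genes under 1 kb had a median log2 fold change of 0.48 (41.1% higher, 13.4% lower), and genes over 6 kb one of -0.26 (9.05% higher, 41.6% lower). In the libraries labelled PPARγ-KO the same 2 medians were 0.41 and -0.19. The share of counts on genes over 5 kb was 29.6% to 30.6% in the 2-month WT libraries and 25.7% to 26.2% in the 5-month ones, without overlap. Counts on noncoding genes and pseudogenes went from between 1.26% and 1.27% to between 1.90% and 2.19%, with processed pseudogenes at a median of 0.44 but antisense genes at -0.59. The fit was therefore repeated with a length trend removed from each library, an alternative chosen after seeing the data, which called 5570 genes. Where a gene described below in WT lost its call in that fit, its adjusted p there is given beside it. The plot of change by gene length shows the trend and its removal.

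**Figure D1:**
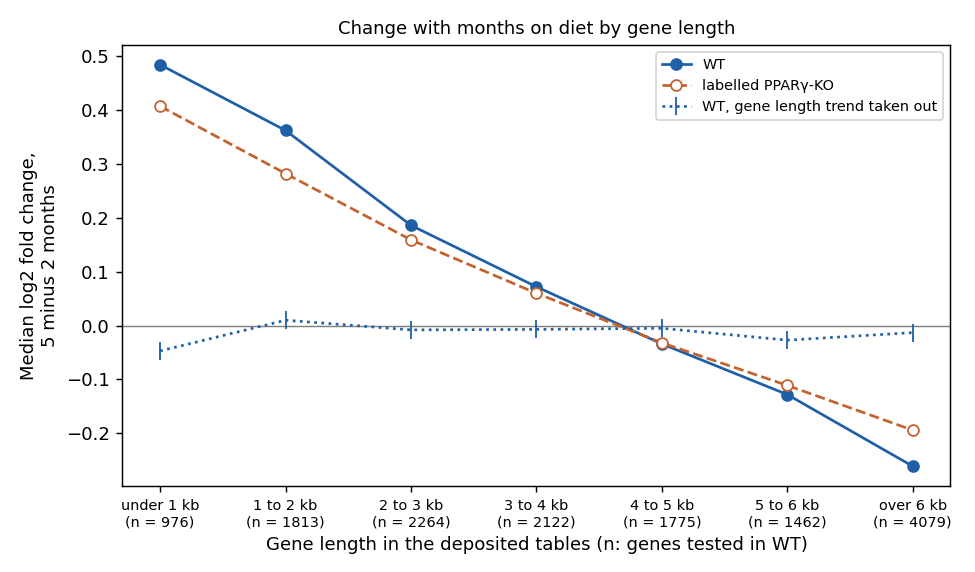
Median log2 fold change between 5 and 2 months (vertical axis) for genes grouped by length (horizontal axis) in WT, in the libraries labelled PPARγ-KO, and in WT after the length trend was taken out. Both genotypes run from above 0 for genes under 1 kb to below 0 for genes over 6 kb, and the WT line with the trend removed stays between -0.05 and 0.01.

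Across the gene lists, WT livers at 5 months had higher acute phase, macrophage, T and NK cell, MHC class II and unfolded protein genes, and lower clock, lipogenic, cholesterol synthesis, peroxisomal and endothelial genes. The median over all genes tested was -0.01, beside which each list's median is to be read. Where 0 members are given below as called in a direction, the count was also 0 at an unadjusted p under 0.05 and by DESeq2, except where stated. The plot of list medians sets these beside the libraries labelled PPARγ-KO, where 44.9% of 14478 genes were called between the times. Across the 14118 genes tested in both genotypes, the WT and PPARγ-KO fold changes had a Pearson r of 0.752, a description across genes that share the same length trend and the same years of handling. Of 6624 genes called in WT and tested in the other genotype, 4641 (70.1%) were called there in the same direction and 29 in the opposite direction.

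**Figure D2:**
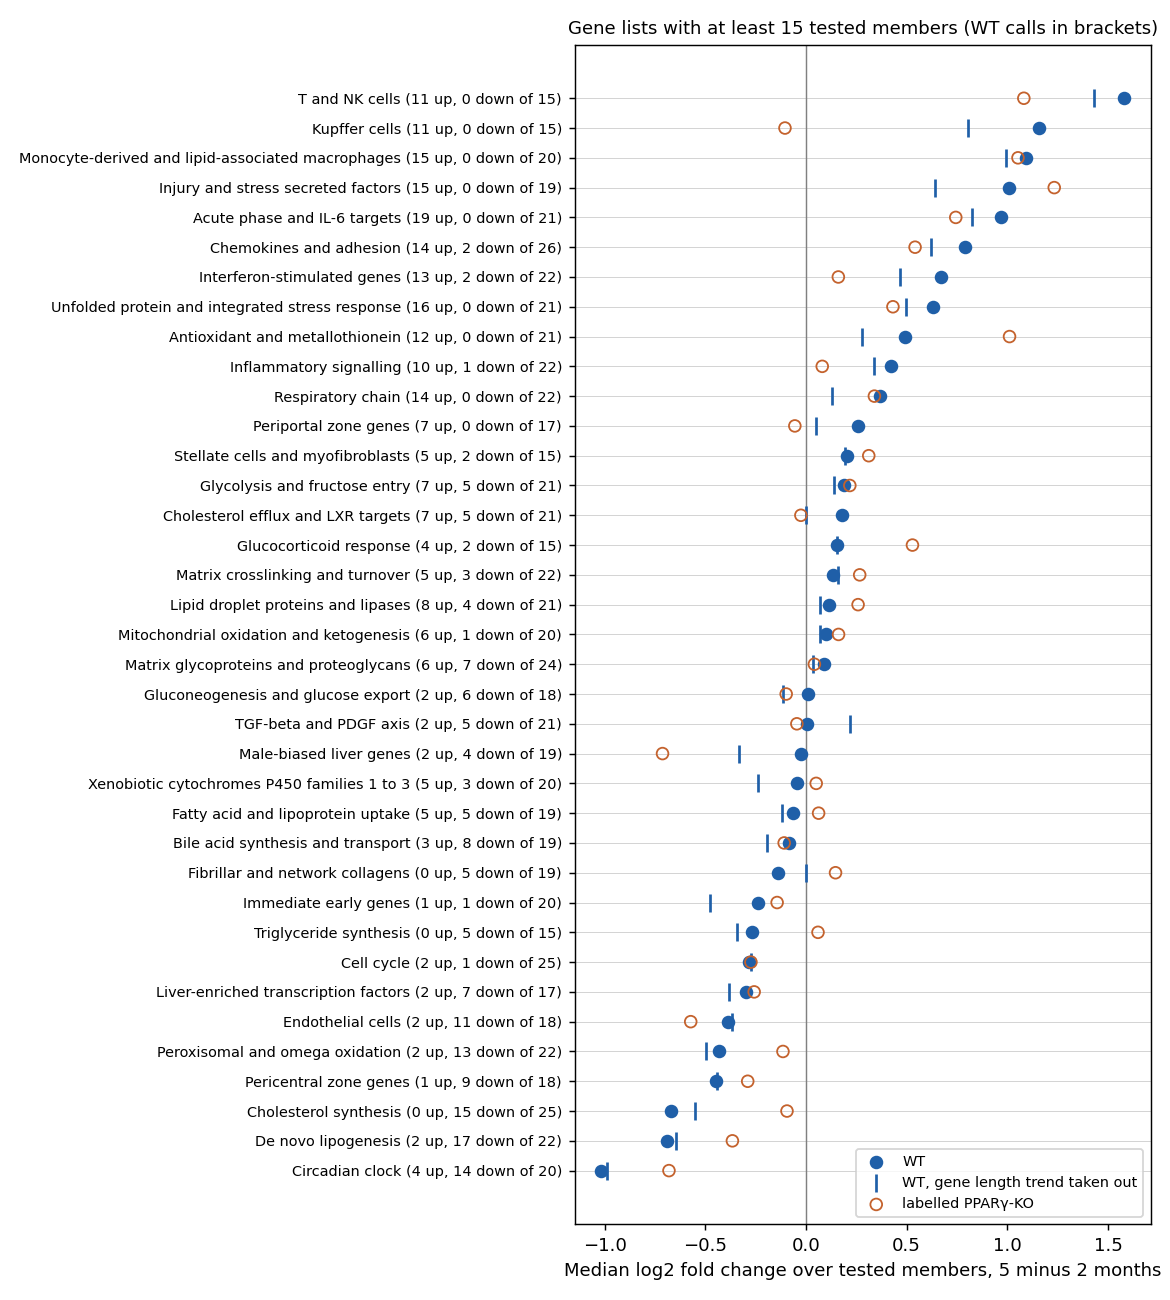
Median log2 fold change between 5 and 2 months (horizontal axis) over the tested members of each gene list with at least 15 of them (vertical axis), in WT (filled), in WT with the gene length trend taken out (tick) and in libraries labelled PPARγ-KO (open); brackets give the WT calls. T and NK cells (1.58) and Kupffer cells (1.16) stand highest in WT and the circadian clock (-1.02) lowest, and Kupffer cells have the widest gap to the other genotype, at -0.10. T and NK cells had 15 tested members in WT and 9 in the other genotype, so those medians do not rest on the same genes.

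Acute phase proteins, which hepatocytes secrete in inflammation, were higher at 5 months: 19 of 21 tested members rose and none fell, with a median log2 fold change of 0.97. Serum amyloid A1 (Saa1, chr7:46740497-46742980 in mm10), carried on lipoproteins, measured 61.2, 76.0 and 73.8 CPM at 2 months and 720, 1149 and 1156 CPM at 5 months. It rose by 3.84 on the log2 scale (SE 0.21, adjusted p = 7.12e-06). Every 5-month library was above every 2-month library, and the first 5-month library was the lowest of its group. Its neighbour Saa2 rose by 3.12 (SE 0.22, adjusted p = 6.01e-05), and since the 2 genes are near copies, reads may have been split between them. Saa3, made mostly by macrophages and stromal cells, went from 2.52, 2.21 and 3.57 CPM to 23.1, 23.3 and 22.6 CPM, a rise of 3.05 (SE 0.16, adjusted p = 1.63e-06). Lipocalin 2 (Lcn2), an iron-siderophore binder, rose by 2.85 (SE 0.31, adjusted p = 0.00105). The scavengers of free haemoglobin and haem, haptoglobin (Hp) and hemopexin (Hpx), rose by 1.36 and 1.57. With any 1 library left out, 18 to 21 members were still called higher, and with the length trend taken out 16 were.

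Genes of Kupffer cells, the macrophages that line the liver sinusoids, were higher at 5 months: 11 of 15 tested members rose and none fell, with a median of 1.16. Clec4f (chr6:83644542-83656187), a lectin that in mouse marks Kupffer cells, measured 112, 116 and 100.1 CPM at 2 months and 229, 216 and 213 CPM at 5 months. It rose by 1.00 (SE 0.08, adjusted p = 8.37e-06), and the groups lay far apart relative to their spread. The scavenger receptor Marco rose from 2.86, 5.73 and 5.64 CPM to 29.5, 34.5 and 32.2 CPM, a change of 2.75 (SE 0.22, adjusted p = 2.74e-05). Complement subunits C1qa and C1qc each rose by 1.82, and the lipid-binding survival factor Cd5l by 1.79 (SE 0.13, adjusted p = 7.33e-06). The complement receptor Vsig4 went from between 29.2 and 32.1 CPM to between 59.9 and 68.2 CPM, a rise of 1.08. Timd4, a phosphatidylserine receptor of embryo-derived Kupffer cells, measured 7.46, 6.79 and 5.75 CPM and then 7.00, 7.83 and 8.08 CPM. Its groups overlapped and it was not called (0.20, SE 0.16, adjusted p = 0.334). The haemoglobin scavenger receptor Cd163 was not called either (-0.42, adjusted p = 0.125), but it passed without 5-month replicate 1 (-0.70, adjusted p = 0.00633) and without the low count filter (0.0202). In whole liver, more cells of a type and more RNA per cell cannot be told apart. The summed level of the 15 markers was 721 to 825 CPM at 2 months and 1709 to 1918 CPM at 5 months.

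Genes of monocyte-derived and lipid-associated macrophages, the cells that gather around fat-laden hepatocytes, were also higher: 15 of 20 rose and none fell (median 1.09). Trem2, the lipid receptor that defines these cells, measured 2.97, 5.21 and 4.50 CPM at 2 months and 11.2, 18.9 and 17.8 CPM at 5 months, without overlap. It rose by 1.91 (SE 0.25, adjusted p = 0.000284). Galectin 3 (Lgals3) went from 12.5, 21.2 and 23.3 CPM to 66.6, 96.9 and 87.0 CPM and rose by 2.13 (SE 0.27, adjusted p = 0.00177). Lysozyme 2 (Lyz2), a gene of all myeloid cells, went from 90.2, 101 and 97.9 CPM to 295, 407 and 402 CPM (1.93, SE 0.12, adjusted p = 3.34e-06). Gpnmb, a lysosomal glycoprotein, rose by 2.25 (SE 0.48, adjusted p = 0.0190), but the call was lost without 2-month replicate 2 (adjusted p = 0.0605) and without 5-month replicate 2 (0.0644) or 3 (0.0608). In the first library of each time these genes were lowest, and without 5-month replicate 2 only 9 members were called. Spp1, osteopontin, which bile duct cells also make, was not called (0.80, SE 0.40, adjusted p = 0.176), though it was without 5-month replicate 1 (1.08, adjusted p = 0.0348). The summed level of the list was 569 to 799 CPM at 2 months and 1272 to 1791 CPM at 5 months.

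**Figure D3:**
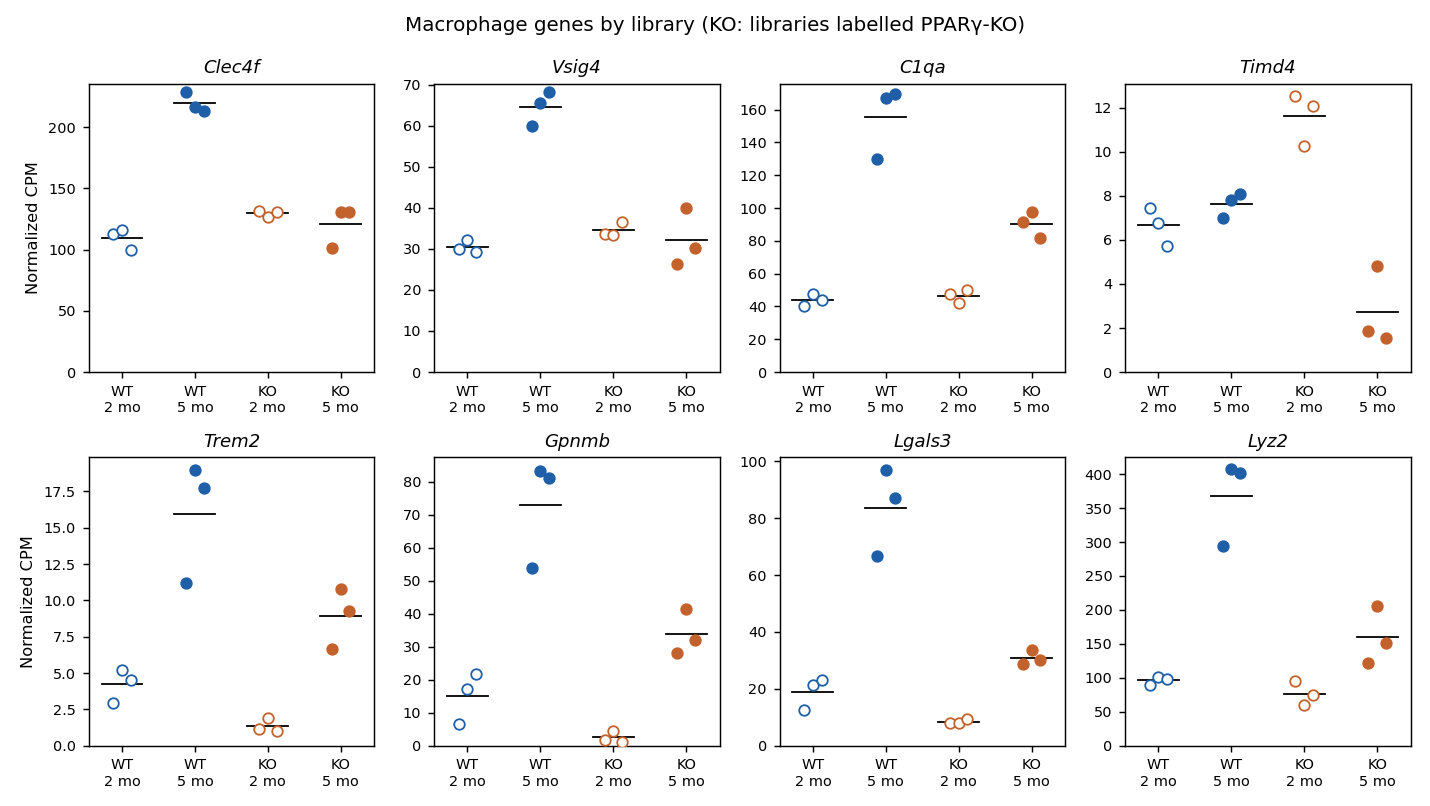
CPM of 8 macrophage genes (vertical axes, from 0) in each library by genotype and months on diet (horizontal axes); points are libraries, lines are group means, open points are 2 months and filled points 5 months. Clec4f and Vsig4 rise with months in WT and not in the libraries labelled PPARγ-KO, Timd4 falls in the labelled PPARγ-KO libraries, and the lower row rises in both.

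Lymphocyte genes were measured at low levels and were higher at 5 months: 11 of 15 tested T and NK cell markers rose and none fell (median 1.58). Of 19 listed, 15 passed the low count filter in WT and 9 in the libraries labelled PPARγ-KO. The summed level of all 19, which does not depend on the filter, was 9.31 to 12.3 CPM at 2 months and 26.4 to 44.0 CPM at 5 months. Cd8a, the co-receptor of cytotoxic T cells, measured 0.168, 0.526 and 0.466 CPM and then 1.45, 3.35 and 3.26 CPM, a rise of 2.77 (SE 0.46, adjusted p = 0.000718). The granule protease Gzmb rose by 2.75 (SE 0.38, adjusted p = 0.000202) and the T cell receptor subunit Cd3g by 3.25 (SE 0.57, adjusted p = 0.00092). Cd3g had 3, 4 and 3 counts at 2 months and 13, 47 and 31 at 5 months. It passed the filter only through its 5-month libraries. For such a gene the filter largely fixes the direction, so the count of members that rose is weak evidence. No marker of B and plasma cells was called by edgeR among 10 tested (2 were higher at an unadjusted p under 0.05 and 1 by DESeq2), and their summed level overlapped between the times (33.5 to 47.9 and 30.4 to 50.5 CPM). Of the MHC class II genes, which present antigen to helper T cells, 7 of 10 rose and none fell (median 1.59). H2-Ab1 went from 44.7, 65.7 and 60.1 CPM to 169, 269 and 273 CPM and rose by 2.06 (SE 0.24, adjusted p = 0.000768). Cathepsin S (Ctss), which trims the invariant chain, rose by 1.76 (SE 0.12, adjusted p = 4.32e-06). Of 7 dendritic cell markers tested, the transcription factor Zbtb46 fell by 1.05 (SE 0.18, adjusted p = 0.000881). Batf3, of cross-presenting dendritic cells, rose by 0.91 (SE 0.33, adjusted p = 0.0431) with groups that overlapped, and its call was lost without any 1 library other than 2-month replicate 2 (adjusted p from 0.0674 to 0.156) and with the length trend taken out (0.207).

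Of 26 chemokine and adhesion genes, 14 rose and 2 fell (median 0.79). The T cell attractants Ccl5 and Cxcl9 rose by 2.31 and 1.47, and the myeloid chemokine Ccl6 by 2.24. Ccl2, which recruits monocytes, measured 2.47, 2.58 and 3.31 CPM and then 6.21, 7.89 and 6.37 CPM, a rise of 1.29 (SE 0.20, adjusted p = 0.000445). P-selectin (Selp), an endothelial adhesion molecule, fell by 1.38 (SE 0.23, adjusted p = 0.000654). Of 22 genes of inflammatory signalling, 10 rose, among them the endotoxin co-receptor Cd14 (1.96, SE 0.34, adjusted p = 0.00432). The cytokine Il1a was the 1 member that fell (-0.56, SE 0.20, adjusted p = 0.0366), and its call was lost without any 1 library other than 2-month replicate 1 (adjusted p from 0.0530 to 0.161).

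Interferon-stimulated genes were higher on balance, 13 of 22 rising and 2 falling (median 0.67). The interferon-stimulated response element, searched as GAAA, 2 bases of any kind and GAAA on both strands of the 250 bases before the RefSeq start, lay in 10 of 16 members with a promoter sequence (62.5%) and in 2.83% of the 10566 promoters of tested genes. It is shown here for 3 members that rose, in capitals with 20 bases on each side where the window allows, read on the strand of the gene (RefSeq, GRCm38.p6).
Bst2, chr8:71537567-71537622, minus strand: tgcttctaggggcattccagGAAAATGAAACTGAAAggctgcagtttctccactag
Gbp2, chr3:142620584-142620633, plus strand: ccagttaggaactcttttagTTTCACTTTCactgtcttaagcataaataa
Isg15, chr4:156200855-156200916, minus strand: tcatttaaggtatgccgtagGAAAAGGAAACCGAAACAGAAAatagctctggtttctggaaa
Bst2 and Isg15 hold overlapping copies, which is why their capitals run past 10 bases, and Gbp2 holds the element on the other strand. Bst2, tetherin, which holds budding virus at the cell surface, measured 105, 114 and 115 CPM and then 356, 301 and 314 CPM (1.54, SE 0.09, adjusted p = 2.27e-06). The guanylate-binding protein Gbp2 rose by 1.52 (SE 0.22, adjusted p = 0.00104). Isg15, a ubiquitin-like modifier, went from 5.28, 6.31 and 6.42 CPM to 11.0, 11.4 and 11.5 CPM (0.91, SE 0.14). Stat2, a subunit of the factor that binds this element, was one of the 2 members that fell, though its own promoter holds the element too.

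Fibrillar and network collagens, the main scar proteins, were not called higher. By edgeR 0 of 19 passed in that direction, also 0 at an unadjusted p under 0.05 and 0 by DESeq2, and 5 were called lower, against 23.8% and 22.7% of all genes (median -0.14). Col1a1 measured 53.4, 99.9 and 99.0 CPM at 2 months and 60.5, 101 and 96.3 CPM at 5 months, a difference of 0.03 (SE 0.33, adjusted p = 0.951). Col3a1 measured 118, 213 and 199 CPM and then 148, 202 and 187 CPM, a difference of 0.02 (SE 0.25, adjusted p = 0.960). For both genes the first library of each time was low and the groups overlapped. Their sign was negative without 2-month replicate 1 (-0.21 and -0.20) and with library size alone. The length trend bears on this list, since with it taken out 2 collagens were called higher and 4 lower and the median was 0.00. Col27a1, a fibrillar collagen of cartilage, went from 55.8, 74.2 and 79.9 CPM to 13.9, 22.1 and 23.2 CPM and fell by 1.82 (SE 0.23, adjusted p = 0.00109).

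Other matrix genes moved both ways, with 6 of 24 glycoproteins and proteoglycans higher and 7 lower. Decorin (Dcn), a collagen-binding proteoglycan of stellate cells, rose from between 198 and 204 CPM to between 286 and 320 CPM (0.60, SE 0.08, adjusted p = 0.000135). Fibronectin (Fn1), which hepatocytes also secrete, measured 2193, 1796 and 1827 CPM and then 1075, 1037 and 1082 CPM and fell by 0.86 (SE 0.10, adjusted p = 8.45e-05), and was chosen after its values were seen. The protease inhibitor Timp1 measured 0.786, 1.95 and 1.92 CPM and then 2.59, 3.71 and 3.91 CPM. It rose by 1.13 (SE 0.33, adjusted p = 0.0175), a call lost without 5-month replicate 2 (adjusted p = 0.0576) or 3 (0.0694) and with the length trend taken out (0.156). Timp3, an inhibitor bound to the matrix, fell by 1.21 (SE 0.14, adjusted p = 7.71e-05). Macrophage elastase Mmp12 rose by 1.56 (SE 0.34, adjusted p = 0.0175), a call lost without 5-month replicate 2 (0.0575) and without the low count filter (0.0520). Of the TGF-beta and PDGF axis, Pdgfc, a mitogen for stellate cells, went from 3.48, 3.58 and 4.19 CPM to 10.1, 9.09 and 9.85 CPM (1.37, SE 0.16, adjusted p = 7.10e-05). Tgfb1 overlapped between the times, at 20.8 to 28.6 and 21.0 to 29.3 CPM (0.00, SE 0.15, adjusted p = 0.989), and the inhibitory Smad7 fell by 0.95 (SE 0.15, adjusted p = 0.000593). The myofibroblast actin Acta2 measured 1.12, 5.42 and 6.47 CPM and then 5.73, 7.12 and 7.49 CPM and was not called (0.64, SE 0.55, adjusted p = 0.384). Of 15 stellate cell markers tested, 5 rose and 2 fell, about the share called among all genes (46.4%). The summed level of 16 listed markers was 713 to 756 CPM at 2 months and 848 to 911 CPM at 5 months. Abundant members weigh most in this sum, among them Dcn at 198 to 204 CPM and then 286 to 320 CPM. The sum therefore does not speak for the list as a whole.

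De novo lipogenesis genes, most of them enzymes that turn acetyl-CoA into fatty acids, were lower at 5 months: 17 of 22 fell and 2 rose (median -0.69). Acetyl-CoA carboxylase 2 (Acacb) measured 195, 300.1 and 305 CPM at 2 months and 74.9, 81.6 and 84.9 CPM at 5 months. It fell by 1.73 (SE 0.17, adjusted p = 0.00012). Fatty acid synthase (Fasn, chr11:120805846-120824547) measured 1359, 3089 and 3705 CPM and then 1261, 1080 and 1116 CPM. The 2-month libraries thus differed among themselves by more than the first of them differed from the 5-month group. It fell by 1.24 (SE 0.38, adjusted p = 0.0448), but the call was lost without any 1 library other than 2-month replicate 1, at adjusted p from 0.0714 to 0.129, with the length trend taken out (0.108) and without the low count filter (0.138). Stearoyl-CoA desaturase (Scd1), one of the most abundant transcripts, measured 48990, 51370 and 56710 CPM and then 37390, 29400 and 29460 CPM and fell by 0.71 (SE 0.14, adjusted p = 0.00178). The transcription factor Srebf1, which drives these enzymes under insulin, fell by 0.59 (SE 0.12, adjusted p = 0.00234). The carbohydrate-responsive factor Mlxipl, chosen after its values were seen, fell by 1.20 (SE 0.12, adjusted p = 2.80e-05). Nr1h3, the oxysterol receptor LXRα, was one of the 2 members that rose (0.41, SE 0.07). Without 5-month replicate 2, 11 members were called lower.

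Of 15 triglyceride synthesis genes 5 fell and none rose, beside 22.7% lower and 23.8% higher among all genes. Gpam, which adds the first acyl chain to glycerol phosphate, went from 497, 845 and 822 CPM to 239, 255 and 250 CPM (-1.54, SE 0.19, adjusted p = 0.00046). Of 21 lipid droplet genes 8 rose and 4 fell. The droplet coat protein Plin2 measured 951, 1236 and 1075 CPM and then 1179, 1223 and 1201 CPM (0.14, SE 0.11, adjusted p = 0.294). Cidec, a droplet fusion protein and a PPARγ target, overlapped between the times (-0.06, SE 0.21, adjusted p = 0.841), but was called lower without 2-month replicate 1 (-0.28, adjusted p = 0.00656). The groups also overlapped for the fatty acid translocase Cd36 (0.17, SE 0.11, adjusted p = 0.209). Plin5, which ties droplets to mitochondria, went from 33.0, 38.3 and 35.9 CPM to 85.6, 69.6 and 72.8 CPM, a rise of 1.09 (SE 0.09, adjusted p = 1.15e-05). Lipoprotein lipase (Lpl), scarce in healthy hepatocytes and made by macrophages, went from 45.6, 59.6 and 55.4 CPM to 143, 208 and 219 CPM (1.83, SE 0.18, adjusted p = 0.000156). Hormone-sensitive lipase (Lipe) fell by 1.21 (SE 0.17, adjusted p = 0.000296).

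Cholesterol synthesis genes, which SREBP2 switches on when cholesterol is short, were lower at 5 months: 15 of 25 fell and none rose (median -0.67). Hsd17b7, of the late steps from lanosterol, measured 68.2, 70.4 and 63.8 CPM and then 27.4, 29.5 and 29.2 CPM and fell by 1.23 (SE 0.07, adjusted p = 2.27e-06). Stard4, a sterol carrier between membranes, went from 122, 103 and 120.0 CPM to 53.6, 51.1 and 49.2 CPM (-1.16, SE 0.08, adjusted p = 4.10e-06). In both genes each 5-month library was below each 2-month library. The count of members called lower was 14 to 20 with any 1 library left out and 16 with the length trend taken out. In the libraries labelled PPARγ-KO the median over the list was -0.09, with 5 members called lower and 2 higher. In the direct test of a difference between the genotypes, 1 of 25 members was called, and 5 by DESeq2.

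Fatty acid oxidation genes were called in both directions. Of 22 peroxisomal and omega-oxidation genes, 13 fell and 2 rose (median -0.43), while of 20 genes of mitochondrial oxidation and ketogenesis 6 rose and 1 fell. The mitochondrial count was not stable: with the length trend taken out 3 rose and 4 fell, and 2 rose without 2-month replicate 3 or 5-month replicate 1 and 3 without 5-month replicate 3. The acyl-CoA thioesterase Acot3 measured 30.6, 55.9 and 30.4 CPM and then 2.17, 2.99 and 2.94 CPM and fell by 3.84 (SE 0.32, adjusted p = 0.000169). Its neighbour and close relative Acot4 fell by 2.16 (SE 0.18, adjusted p = 8.95e-05), and reads may be shared between such paralogs. Cpt1a, the gate of long-chain fatty acids into mitochondria, was the mitochondrial member that fell, from 914, 989 and 792 CPM to 430, 436 and 433 CPM (-1.05, SE 0.10, adjusted p = 1.78e-05). Their regulator Ppara measured 321, 318 and 288 CPM and then 120, 104 and 104 CPM and fell by 1.4999 (SE 0.09, adjusted p = 2.27e-06). The coactivator Ppargc1b fell by 1.81 (SE 0.18, adjusted p = 2.30e-05). Pparg itself (chr6:115360951-115490399) was not called in WT, at 39.9, 42.3 and 38.4 CPM and then 37.6, 42.5 and 38.0 CPM (-0.03, SE 0.08, adjusted p = 0.775). In the libraries labelled PPARγ-KO it was 49.3, 65.1 and 50.8 CPM and then 84.3, 90.7 and 73.3 CPM. Counts over the whole gene, which include exons a Cre deletion can leave, were thus not lower in those libraries and check the label in neither direction. The PPARγ target Cidec measured 13.1, 7.37 and 9.81 CPM and then 25.8, 21.5 and 16.8 CPM in them, all below the WT libraries, which lay between 103 and 181 CPM.

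**Figure D4:**
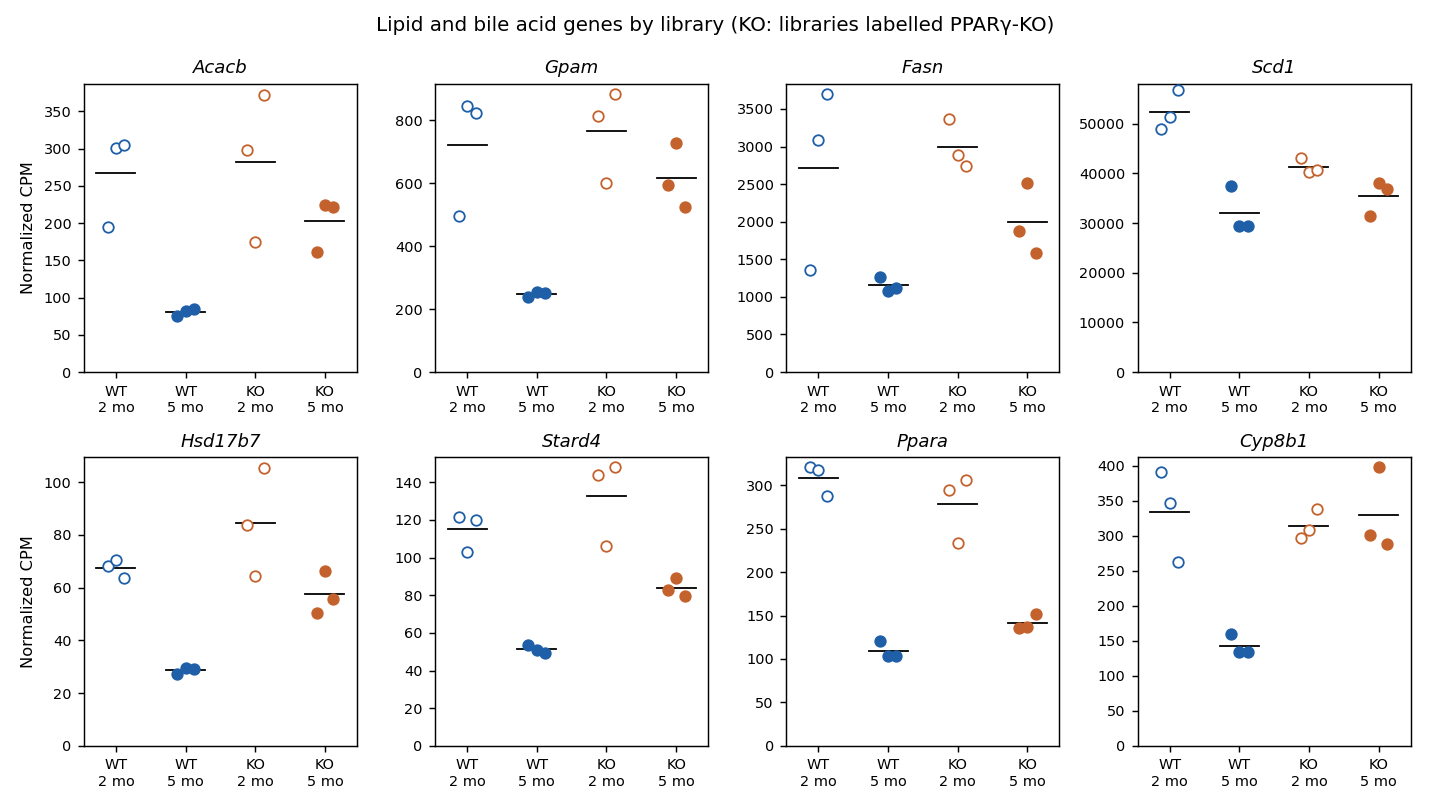
CPM of 8 lipid and bile acid genes (vertical axes, from 0) in each library by genotype and months on diet (horizontal axes). They are genes of fatty acid, triglyceride, cholesterol and bile acid synthesis, the sterol carrier Stard4, and Ppara, a regulator of fatty acid oxidation genes. Points are libraries, lines are group means, open points are 2 months and filled points 5 months. All 8 genes are lower at 5 months in WT; Fasn has the widest spread among the 2-month WT libraries, from 1359 to 3705 CPM.

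Bile acid genes were mixed, with 8 of 19 lower and 3 higher. Cyp8b1, the sterol hydroxylase that makes cholic acid, went from 391, 348 and 263 CPM to 159, 134 and 134 CPM (-1.23, SE 0.14, adjusted p = 0.000148). The bile acid importer Slc10a1 fell by 1.28 (SE 0.24, adjusted p = 0.00642). Cyp7a1, the rate-limiting enzyme, measured 231, 101 and 95.8 CPM and then 56.2, 44.7 and 47.8 CPM. It fell by 1.52 (SE 0.43, adjusted p = 0.0420), but the call was lost without 5-month replicate 1, 2 or 3 (adjusted p from 0.0983 to 0.133), without the low count filter (0.0935) and with the length trend taken out (0.0523). The organic anion transporter Slco1a1 varied from 41.8 to 271 CPM among the 2-month libraries and from 16.9 to 23.5 CPM at 5 months. It was called (-3.07, SE 0.80, adjusted p = 0.0386), but not without any 1 library other than 2-month replicate 2 (adjusted p from 0.0825 to 0.128), without the low count filter (0.0707) or with the length trend taken out (0.0504).

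Genes of the pericentral zone, around the outflow vein, were lower: 9 of 18 fell and 1 rose (median -0.45). The glutamate transporter Slc1a2 went from 224, 144 and 161 CPM to 99.7, 87.1 and 84.5 CPM (-0.96, SE 0.16, adjusted p = 0.00185), and Rnf43, a target and brake of Wnt signalling, fell by 0.74 (SE 0.10, adjusted p = 0.000221). Of 17 periportal genes 7 rose and none fell by edgeR (1 fell at an unadjusted p under 0.05 and 1 by DESeq2; median 0.26), but 3 rose and 1 fell with the length trend taken out. The master factor of hepatocyte identity, Hnf4a, was not called, though it was called higher in 1 of 17 other settings. It measured 530, 430 and 449 CPM and then 558, 504 and 515 CPM (0.16, SE 0.10, adjusted p = 0.203). Albumin (Alb), the main secreted protein, measured 50280, 42590 and 45100 CPM and then 34460, 39590 and 39380 CPM, each 5-month library below each 2-month library, but was not called (-0.28, SE 0.13, adjusted p = 0.086). It was called in 6 of 17 other settings, at -0.50 (adjusted p = 0.00856) with the length trend taken out and at -0.28 (0.0140) by DESeq2 among them. Fetal Afp overlapped between the times (-0.17, SE 0.23, adjusted p = 0.550). Of 17 liver-enriched transcription factors 7 fell and 2 rose. Onecut1 fell by 1.78 (SE 0.40, adjusted p = 0.0113), a call lost without 2-month replicate 1 (0.0532), and Prox1 fell by 0.73 (SE 0.13, adjusted p = 0.00127). The summed level of 13 hepatocyte markers overlapped between the times, at 66670 to 79960 CPM and 72100 to 77240 CPM.

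Endothelial genes were lower, 11 of 18 falling and 2 rising (median -0.39). Their summed level was 799 to 937 CPM at 2 months and 680 to 698 CPM at 5 months. The sinusoidal scavenger receptor Stab1 measured 92.7, 119 and 108 CPM and then 38.5, 58.2 and 56.7 CPM and fell by 1.06 (SE 0.17, adjusted p = 0.00172). The VEGF receptor Kdr fell by 0.86 (SE 0.09, adjusted p = 3.80e-05) and von Willebrand factor (Vwf) by 1.09 (SE 0.16, adjusted p = 0.000382). The sinusoidal lectin Clec4g went the other way, from 31.1, 34.3 and 32.9 CPM to 58.8, 53.0 and 45.1 CPM (0.67, SE 0.10, adjusted p = 0.000302). With the length trend taken out 10 members were called lower.

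Circadian clock genes had the lowest median of any list with at least 15 tested members, -1.02: 14 of 20 fell and 4 rose. The clock is a feedback loop in which Arntl (BMAL1), Clock and Npas2 switch on the Per and Cry repressors through E-boxes, while D-boxes and ROR elements set the timing of other members. Its genes peak at different hours of the day, and the hour of harvest was not available for these libraries. Promoters of 4 members are shown with the E-box (CACGTG), D-box (TTATGTAA) or ROR element (TAGGTCA) in capitals, read on the strand of the gene (RefSeq, GRCm38.p6).
Ciart, chr3:95882247-95882364, minus strand: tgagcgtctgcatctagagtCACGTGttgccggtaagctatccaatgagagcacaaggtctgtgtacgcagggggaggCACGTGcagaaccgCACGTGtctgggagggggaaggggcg
Tef, chr15:81802526-81802571, plus strand: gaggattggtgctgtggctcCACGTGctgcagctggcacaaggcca
Per3, chr4:151044796-151044890, minus strand: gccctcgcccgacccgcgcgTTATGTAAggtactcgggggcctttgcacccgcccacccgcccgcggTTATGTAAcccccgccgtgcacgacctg
Nfil3, chr13:52981040-52981071, minus strand: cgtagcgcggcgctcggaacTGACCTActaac
The E-box lay in 5 of 17 clock promoters (29.4%) and in 8.32% of all promoters of tested genes, the D-box in 1 (5.88%) against 0.511%, and the ROR element in 1 (5.88%) against 1.84%, where Nfil3 holds it on the other strand.

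Ciart, a repressor of the loop with 3 E-boxes in its promoter, measured 10.1, 12.7 and 14.8 CPM at 2 months and 0.905, 0.777 and 1.02 CPM at 5 months. It fell by 3.78 (SE 0.22, adjusted p = 2.27e-06). Per3 went from 68.2, 68.0 and 59.5 CPM to 6.03, 11.2 and 10.5 CPM and fell by 2.81 (SE 0.20, adjusted p = 4.48e-05). For both genes the lowest 2-month library was several times the highest 5-month library. Per2 fell by 2.18 (SE 0.17), and the output factors Dbp and Tef fell by 2.10 (SE 0.13) and 1.63 (SE 0.09). The deubiquitinase Usp2 went from 38.1, 45.0 and 43.3 CPM to 9.17, 6.58 and 4.87 CPM (-2.62, SE 0.19, adjusted p = 1.99e-05). The activators stood on the other side. Arntl measured 1.80, 2.21 and 2.17 CPM and then 9.41, 8.73 and 9.10 CPM, a rise of 2.13 (SE 0.18, adjusted p = 9.19e-06), Npas2 rose by 2.36 (SE 0.31) and Clock by 0.38 (SE 0.09). Nfil3, the repressor that competes with Dbp and Tef for D-boxes, rose by 1.04 (SE 0.13, adjusted p = 0.000111). In the libraries labelled PPARγ-KO 12 members were called lower and 4 higher, with a median of -0.68. The part of the hour of harvest in these differences was not tested.

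**Figure D5:**
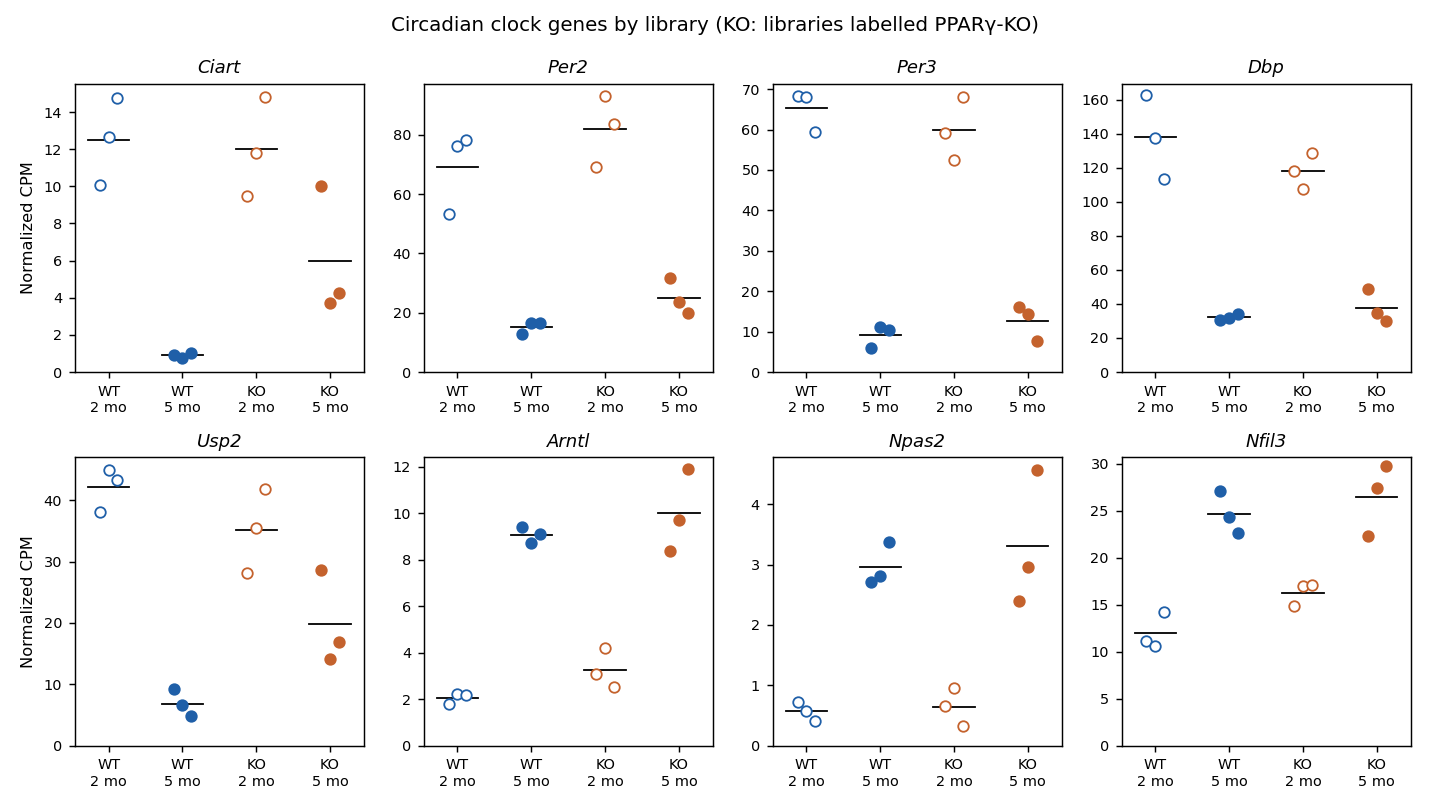
CPM of 8 clock genes (vertical axes, from 0) in each library by genotype and months on diet (horizontal axes); points are libraries, lines are group means, open points are 2 months and filled points 5 months. Ciart, Per2, Per3, Dbp and Usp2 are lower and Arntl, Npas2 and Nfil3 higher at 5 months in WT, with no overlap between the times.

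Genes of the unfolded protein and integrated stress response, which expand the folding capacity of the endoplasmic reticulum, were higher: 16 of 21 rose and none fell (median 0.63). The element that serves this response, searched on both strands of the same window as CCAAT and CCACG with 9 bases of any kind between them, lay in 5 of 19 members with a promoter sequence (26.3%) and in 0.161% of all promoters of tested genes. It is shown for 3 of them, in capitals, on the strand of the gene (RefSeq, GRCm38.p6).
Hspa5, chr2:34772005-34772063, plus strand: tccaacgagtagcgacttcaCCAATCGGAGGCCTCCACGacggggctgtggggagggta
Creld2, chr15:88819500-88819558, plus strand: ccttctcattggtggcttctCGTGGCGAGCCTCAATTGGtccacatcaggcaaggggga
Calr, chr8:84847055-84847113, minus strand: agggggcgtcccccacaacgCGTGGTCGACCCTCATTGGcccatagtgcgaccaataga
Creld2 and Calr hold it on the other strand. The chaperone BiP (Hspa5) measured 499, 491 and 666 CPM and then 1344, 1158 and 1144 CPM, a rise of 1.14 (SE 0.13, adjusted p = 6.89e-05). Creld2 went from 10.6, 13.4 and 24.0 CPM to 64.7, 54.5 and 52.6 CPM (1.84, SE 0.32, adjusted p = 0.00645). Calreticulin (Calr), a lectin chaperone, rose by 0.69 (SE 0.09, adjusted p = 0.000182). Sdf2l1, a partner of BiP, went from 14.5, 7.00 and 10.8 CPM to 60.8, 47.1 and 50.4 CPM (2.29, SE 0.25, adjusted p = 0.000605). All 5-month libraries lay above all 2-month libraries in these 4 genes. Hspa5, Creld2 and Calr all kept their calls with the length trend taken out, which left 13 members called higher.

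The genes with the widest changes by the naming rule included several at low counts. Metallothionein 2 (Mt2, chr8:94172664-94173568), a metal-binding protein, had 1, 0 and 0 counts at 2 months and 30, 31 and 41 at 5 months. Summed over libraries this is a ratio of 110, with a 95% interval for counting error of 19.3 to 4390. Vmn1r90, listed as a vomeronasal receptor of a large gene family in which reads can be shared, had 68, 20 and 42 counts and then 0, 1 and 0, a ratio of 120 the other way (95% interval 21.2 to 4790). Cyp3a16, a cytochrome P450 from a cluster of near copies, had 1, 4 and 0 counts and then 49, 40 and 75. The ubiquitin-like Ubd, induced by inflammatory cytokines, rose by 3.53 (SE 0.60, adjusted p = 0.00933), the chitinase-like macrophage protein Chil3 by 3.41 (SE 0.34, adjusted p = 2.95e-05), and the retinol dehydrogenase Dhrs9 by 3.16 (SE 0.16, adjusted p = 1.36e-06). Lars2, the mitochondrial leucyl-tRNA synthetase, measured 146, 125 and 118 CPM and then 1666, 1166 and 1112 CPM (3.34, SE 0.17, adjusted p = 2.56e-06). In the libraries labelled PPARγ-KO its mean went from 93.7 to 1926 CPM (4.36, SE 0.09), so the rise was not particular to WT. It goes with the years of the tables in both genotypes. Whether it lies in the livers or in how the libraries were made was not tested. The falls that the rule named beyond those above were R3hdml (-4.26), Abca14 (-3.60), Pde6c (-3.17), the small nucleolar RNA host gene Snhg11 (-2.86) and Ankrd61 (-2.78).

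Whether a change with months differed between the genotypes was tested directly over all 12 libraries. Of 15127 genes, 238 (1.57%) passed, 138 with a larger value in WT (0.912%) and 100 with a smaller one (0.661%). The number rests on single libraries: it was 567 without WT 2-month replicate 1, 83 and 96 without WT 5-month replicates 3 and 2, 117 and 144 without labelled PPARγ-KO 5-month replicates 3 and 2, and 147 without labelled PPARγ-KO 2-month replicate 1. Kupffer cell markers were called in 10 of 15 cases, all with the larger value in WT. This count ranged from 6 to 11 with 1 library left out and was 10 with the length trend taken out. Clec4f rose by 1.00 in WT and measured 132, 127 and 130.4 CPM and then 101, 130.4 and 130.6 CPM in the libraries labelled PPARγ-KO (-0.10, adjusted p = 0.39). The difference was 1.10 (adjusted p = 0.00099). For Vsig4 the difference was 1.19 (adjusted p = 0.0046) and for Cd5l 1.04 (adjusted p = 0.011). Timd4 and Cd163, not called in WT, fell by 2.07 and 2.09 in the labelled PPARγ-KO libraries, with differences of 2.27 (adjusted p = 0.017) and 1.67 (adjusted p = 0.0095). The difference for Timd4 was not called without WT 5-month replicate 2 (adjusted p = 0.0548) or 3 (0.0594). The summed level of Kupffer markers was 707 to 821 CPM at 2 months and 849 to 1049 CPM at 5 months in the labelled PPARγ-KO libraries. Of the 20 members of the macrophage list with Trem2, 1 was called for a difference (Tyrobp, 0.78, adjusted p = 0.027). That call was lost in 8 of 19 other settings, among them without WT 2-month replicate 3, without WT 5-month replicate 2 or 3, without labelled PPARγ-KO 2-month replicate 1 or 5-month replicate 2 or 3 (adjusted p from 0.0531 to 0.0920) and with the length trend taken out (0.0923).

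Beyond macrophages, 6 of 22 acute phase genes tested for a difference had the larger value in WT, Saa3 among them (1.71, adjusted p = 0.0046), though only 1 did without WT 5-month replicate 2. Acot3 fell more in WT than in the labelled PPARγ-KO libraries (difference -2.25, adjusted p = 0.011). Cyp8b1 fell in WT and measured 298 to 338 CPM and then 289 to 399 CPM in the labelled PPARγ-KO libraries (difference -1.297, adjusted p = 0.013). The peptide transporter Slc15a2 had the widest difference, 5.66 (adjusted p = 0.00085): in WT it went from 0.168, 0.421 and 0.259 CPM to 3.32, 3.89 and 3.75 CPM, and in the labelled PPARγ-KO libraries from 6.88, 4.97 and 11.3 CPM to 2.21, 1.05 and 2.59 CPM. The groups crossed, WT lying below the other genotype at 2 months and above it at 5 months. Pparg differed by -0.62 (adjusted p = 0.0432), with the rise in the libraries labelled PPARγ-KO, and this call was lost in 10 of 19 other settings.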

How the data were processed

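Total RNA of liver was extracted with TRIzol, and libraries were prepared and sequenced by Novogene on an Illumina NovaSeq instrument. The authors deposited, for each library, raw read counts per gene for 54532 genes with coordinates in mm10. The study's methods name STAR as the aligner and the submitters' processing notes name HISAT2, and which made these counts was not settled. The 27 gene names turned into dates were restored from their gene identifiers. No column of another sample was present.

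Counts were analysed in R 4.3.3 with edgeR 4.0.16 (filterByExpr, TMM, robust quasi-likelihood fit, Benjamini-Hochberg adjustment, threshold 0.05). The 6 WT libraries were fitted together, the 6 libraries labelled PPARγ-KO apart from them, and the difference of the time effects over all 12. No whole-library covariate was used. The fits were tested on simulated data in which 200 genes carried a log2 change of 1.5. Of these, 194 were recovered for WT among 14287 genes (8.06% of calls false), 198 for the labelled PPARγ-KO libraries among 14240 (6.60%) and 186 for the difference among 14809 (5.58%). The changed genes were drawn above a floor of mean counts, and the simulated data held no length trend and no batch. These rates therefore do not cover genes at low counts or a difference as broad as that between the times. Alternatives were DESeq2 1.42.0, other scalings, filters and thresholds, each library left out, a replicate block, and, chosen after seeing the data, an offset by gene length (lowess span 0.3).

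The text names the 10 largest rises and falls among protein-coding genes with groups that do not overlap and at least 1 CPM, at most 4 called members a direction in each of 51 gene lists, 24 set genes, and the 5 largest differences between the genotypes in each direction. Calr, Cd163, Fn1, Hp, Hpx, Hspa5, Isg15, Lyz2, Mlxipl, Spp1, Tef, Tyrobp, Vsig4 and the remaining genes given for a difference between the genotypes were added after their values were seen. Some genes that the lists or the rule hold are not reported here. Members and lists were chosen with earlier results of these data known. Promoter sequences are from RefSeq (GRCm38.p6). Intervals on summed counts cover counting error only, since reads carry no molecular identifiers.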

Additional observations from a re-analysis of the deposited data

Results flagged for a closer look

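For 48 genes of the gene lists or the naming rule, the change between 5 and 2 months differed between WT and the libraries labelled PPARγ-KO in edgeR's test of the difference over all 12 libraries. Values are the WT log2 change minus the labelled PPARγ-KO one. Of the 48, 16 kept their call in every setting tried and 32 lost it in at least 1. With the gene length trend taken out, the calls of Abcc2, Bst2, Crot, Hpx, Igfbp2, Orm1, Serpina1c, Sult5a1 and Tyrobp were lost, at adjusted p from 0.0501 to 0.0923.

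The Kupffer cell genes had the larger value in WT: Timd4 2.27, Folr2 1.81, Cd163 1.67, Vsig4 1.19, Clec4f 1.10, Cd5l 1.04, Fcna 0.89, C1qa 0.86, C1qc 0.86 and Il18bp 0.77. Tyrobp, an adaptor of myeloid receptors, differed by 0.78 and Acod1, which makes itaconate in activated macrophages, by 3.09. The B cell chemokine Cxcl13 differed by 5.42 from values at or under 1.18 CPM in WT. Endothelial genes on the same side were Clec4g at 0.77, Fcgr2b at 0.58 and Dnase1l3 at 0.54.

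Acute phase genes also had the larger value in WT, with Saa3 at 1.71, Itih3 at 0.86, Hpx at 0.70, Itih4 at 0.70, Orm1 at 0.55 and Steap4 at 0.47. The interferon-stimulated Bst2 differed by 0.55, the protease inhibitor Serpina1c by 1.20, the IGF-binding protein Igfbp2 by 2.19, the cathepsin Ctsc by 0.98, the sterol exporter Abcg1 by 0.63 and the acyltransferase Crot by 0.46. Slc15a2 differed by 5.66 and Sult5a1 by 2.61. Mup8 differed by 5.16, but it belongs to a family of near copies among which reads may be shared.

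The smaller value stood in WT for Acot3 at -2.25, Acot4 at -1.24, Cyp8b1 at -1.297, Lpin3 at -0.83, Abcc2 at -0.49 and Pparg at -0.62. The same held for the clock genes Ciart at -2.79, Cry2 at -0.63 and Hlf at -0.52, for the glucocorticoid-responsive Fkbp5 at -2.00 and Dusp1 at -1.28, and for the early response gene Junb at -0.82. Others were Rasl10b at -3.24, Abcc12 at -2.70, Osbpl3 at -2.08, Lars2 at -1.02 and the glucose transporter Slc2a1 at -0.64. Rasl10b measured between 0.268 and 0.789 CPM in the WT libraries and was not tested in WT alone.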

How the results depend on the processing

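In WT the count of called genes (6725) was 5357 to 6967 with 1 library left out, 6342 by DESeq2, 7342 without the low count filter and 5570 with the gene length trend taken out. With library size alone the median of all genes was -0.09 and 41.5% of calls were higher, against 51.2%. In the labelled PPARγ-KO libraries the count was 5374 to 6024 with 1 library left out. The test of the difference between the genotypes (238 genes, 138 higher and 100 lower) depended most on the setting. It gave 594 genes (326 and 268) by DESeq2, 793 (436 and 357) without the low count filter, and 83 to 567 (48 to 292 higher, 35 to 275 lower) with 1 library left out. Whether the replicate numbers pair the samples was not settled. The same-number correlations of deviations were 0.252, 0.203 and 0.0251, and those of other numbers ran from -0.30 to 0.27. Deviations from a mean of 3 libraries are tied to each other, so these correlations cannot decide it. With the replicate number as a block, 6945 genes were called in WT, 6026 in the labelled PPARγ-KO libraries and 269 for the difference. Fasn and Slco1a1 were not called with the block (adjusted p = 0.146 and 0.0832).

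Over 5690 comparisons of 336 genes with an alternative, 5310 kept direction and side of the threshold, 328 lost and 24 gained the call, and 28 changed sign. The genes that changed sign were, with library size alone, Col1a1 (-0.056), Col3a1 (-0.070) and Tgfb1 (-0.08). With at least 10 counts in every library they were Col3a1 (-0.0018) and Tgfb1 (-0.017), and without mitochondrial genes Tgfb1 (-0.0044). With the length trend taken out they were Timd4 (-0.048), Mup8 (-0.33), Fabp1 (-0.12), Lect2 (-0.23) and Cyp2c68 (-0.0030). With 1 library left out, the log2 fold change ranged for Col1a1 from -0.21 to 0.23, for Col3a1 from -0.20 to 0.18, for Tgfb1 from -0.14 to 0.13, for Pparg from -0.080 to 0.0066, for Cidec from -0.28 to 0.080, for Afp from -0.30 to 0.018, for Mki67 from -0.63 to 0.051 and for Mup8 from -0.47 to 0.55. The cause of these changes was not tested. With 3 libraries a group, genes whose libraries vary widely, such as Fasn and Slco1a1, sit close to the threshold.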

Other observations

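Among gene groups not described above, genes of the mitochondrial respiratory chain were higher at 5 months, 14 of 22 rising and none falling (median log2 fold change 0.37). The complex IV subunit Cox5b measured 70.5, 68.2 and 63.7 CPM and then 138, 120.1 and 125 CPM, a rise of 0.92 (SE 0.08, adjusted p = 1.14e-05 in edgeR). With the gene length trend taken out 7 rose, 1 fell and the median was 0.13. Antioxidant and metallothionein genes rose in 12 of 21 cases, and in 8 with the length trend taken out, when 1 fell. The lipid peroxide reductase Gpx4 went from 253, 349 and 304 CPM to 614, 575 and 581 CPM (0.97, SE 0.11). Of 12 heat shock genes 3 rose, beside 23.8% of all genes tested, so the list as a whole did not stand out. Among the 3 was the mitochondrial co-chaperonin Hspe1 (1.19, SE 0.07).

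Drug-metabolising cytochromes P450 and their helpers were mixed, with 5 of 20 higher and 3 lower, and 3 higher and 7 lower with the length trend taken out. Cyp3a11 measured 2522, 2316 and 2560 CPM and then 7211, 7120 and 6649 CPM, a rise of 1.504 (SE 0.10, adjusted p = 3.06e-06), while reads may be shared with its near copies. Cyp2a5 fell by 1.14 (SE 0.11). In glycolysis 7 of 21 genes rose and 5 fell. The pyruvate kinase of macrophages and other proliferating or immune cells, Pkm, rose by 1.16 (SE 0.22), and that of hepatocytes, Pklr, fell by 0.77 (SE 0.11). The fructose transporter Slc2a5 fell by 1.15 (SE 0.17), and the insulin receptor substrate Irs2 fell by 1.05 (SE 0.14). Of 25 cell cycle genes 2 rose and 1 fell. The proliferation marker Mki67 measured 4.77, 9.73 and 13.7 CPM and then 6.51, 7.95 and 8.13 CPM (-0.32, SE 0.35, adjusted p = 0.483), and without 2-month replicate 1 it was called lower (-0.63, adjusted p = 0.00998), as were 11 members of the list.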
